A study of Mus musculus with 37 samples.

Results

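The tumour necrosis factor (TNF) superfamily comprises ligands of the TNF type and the receptors that bind them. Members were taken by gene symbol from the count table, as all genes whose symbol begins with Tnfsf or Tnfrsf and a number, together with Tnf, Lta, Ltb, Ltbr, Cd40, Cd40lg, Cd27, Fas, Fasl, Eda2r, Edar and Relt. This gave 44 of the 48795 counted genes, of which 27 encode receptors, 16 encode ligands and 1, Tnfsf13os, is an antisense transcript.

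TNF-type ligands are mostly membrane proteins that act as trimers, at the cell surface or after cleavage by sheddases such as Adam17. Receptors with a death domain recruit Tradd or Fadd and can engage NF-kB signalling or caspase 8, whereas receptors without one bind TRAF adaptors directly, and decoy receptors bind ligand without signalling. In the brain, TNF is made mainly by glia and acts on synaptic scaling, inflammation and cell survival, and many other members are known best from lymphocytes.

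The data were RNA-seq libraries of whole hippocampus from 3 control and 3 Kdm1a-ifKO mice, with 1 male mouse per library, and 1 CTCF ChIA-PET library of Camk2a+ hippocampal neurons. Kdm1a encodes a histone demethylase that acts on H3K4. Kdm1a-ifKO mice carried floxed Kdm1a alleles and the tamoxifen-inducible recombinase Camk2a-creERT2, which acts in principal neurons of the forebrain, so that glia and other cells of the tissue kept the gene. Controls, which the sample labels call WT, were littermates without the recombinase. Both groups received 5 doses of tamoxifen from 8 weeks of age and were on a C57BL/6J background, and the age at which RNA was taken was not given in the sources used here. The ChIA-PET library was labelled WT, male and tamoxifen-treated, and per the study's methods sorted nuclei came from mice with Camk2a-creERT2 and the nuclear reporter CAG-Sun1/sfGFP at 12 weeks of age, so that its mice carried the recombinase that the RNA-seq controls lacked. The RNA-seq comparison addressed which genes changed after loss of Kdm1a in adult neurons.

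The libraries held between 18985542 and 19469947 counts. Kdm1a itself had 1521, 1545 and 1481 counts in controls and 764, 726 and 748 in Kdm1a-ifKOs (80.1 ± 0.897 and 38.2 ± 1.23 CPM, counts scaled to a common library size; mean ± SD, n = 3 each; log2FC -1.07), so all libraries matched their labels. On the second principal component, control replicate 3 and Kdm1a-ifKO replicate 2 stood apart from the other libraries of their groups. In whole tissue, fewer cells of a type and less RNA per cell cannot be told apart.

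Receptor transcripts were far more abundant than ligand transcripts in the control hippocampus. On the TPM scale, which also divides by exon length, 7 of the 27 receptors reached 10 TPM in controls, against 1 of the 16 ligands, and 19 receptors but only 4 ligands reached 1 TPM. The summed level of the receptors was 353 ± 15.4 TPM in controls and 382 ± 16.2 TPM in Kdm1a-ifKOs (mean ± SD, n = 3 each). The summed level of the ligands was 17.6, 22.0 and 17.5 TPM in controls and 19.9, 26.2 and 19.1 TPM in Kdm1a-ifKOs. The sums of the ligands overlapped between the groups. Those of the receptors ran from 338 to 369 TPM in controls and from 368 to 400 TPM in Kdm1a-ifKOs, so that the highest control library lay just above the lowest Kdm1a-ifKO library. A few abundant genes weigh most in the receptor sum. Among them, Tnfrsf25 had 97.0, 78.5 and 68.5 TPM in controls and 95.3, 77.6 and 121.9 TPM in Kdm1a-ifKOs, so that its groups overlapped.

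**Figure D1:**
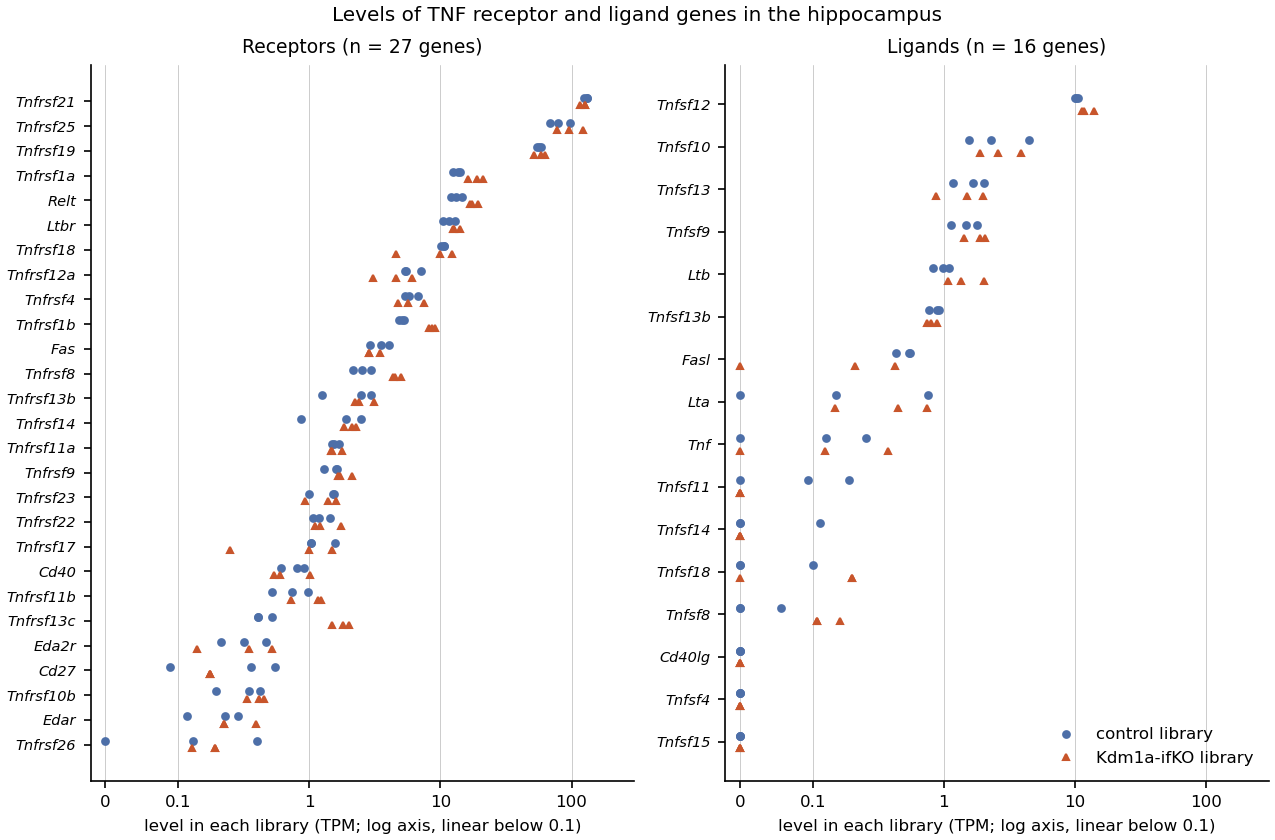
Level of each receptor (left, 27 genes) and ligand (right, 16 genes) in TPM on a log axis that is linear below 0.1, with 1 point per library (circles, 3 controls; triangles, 3 Kdm1a-ifKOs). Tnfrsf21, Tnfrsf25 and Tnfrsf19 lie above all other members, and Tnfsf12 is the only ligand near 10 TPM.

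The 3 most abundant members were receptors, and in controls their levels did not overlap with each other or with the rest. Tnfrsf21 (death receptor 6, known for roles in axon pruning and myelination) had 129 ± 2.97 TPM in controls. Tnfrsf25 (death receptor 3, the receptor of Tnfsf15) had 81.3 ± 14.4 TPM in controls. In Kdm1a-ifKO replicate 3 it reached 121.9 TPM, beside 126.7 TPM of Tnfrsf21 in the same library, and Tnfrsf21 was the higher of the pair in every library. Tnfrsf19 (also called Troy, which takes part in the receptor complex for myelin inhibitors) had 56.5 ± 2.34 TPM. The next neighbours in the order of control levels overlapped between libraries: Tnfrsf1a (13.4 TPM), Relt (13.3 TPM), the lymphotoxin beta receptor Ltbr (11.7 TPM), Tnfrsf18 (10.5 TPM) and the ligand Tnfsf12 (10.2 TPM).

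Of the 26 ligand and receptor pairs listed from general knowledge, 6 had at least 1 TPM on both sides in controls. These were Tnfsf9 with Tnfrsf9, Tnfsf10 with the decoy receptors Tnfrsf22 and Tnfrsf23, Tnfsf12 with Tnfrsf12a, and Tnfsf13 with Tnfrsf13b and Tnfrsf17. Tnfrsf25 was the clearest case of a receptor without its ligand, as Tnfsf15 had 0 counts in all 6 libraries.

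In Kdm1a-ifKOs, 5 receptors were higher and no ligand passed the test. Of the 44 members, 41 had a count and 27 passed the filter on low counts, 22 receptors and 5 ligands. With edgeR's quasi-likelihood test and an adjusted p under 0.05 (Benjamini-Hochberg over the 16799 genes tested), 5 of the 27 were higher in Kdm1a-ifKOs and 0 were lower, beside 6.04% of all tested genes called higher, 2.82% called lower and 8.85% in either direction. No member had an unadjusted p under 0.05 in the lower direction, and DESeq2 also called 5 higher and 0 lower. The 5 called members were Tnfrsf13c, Tnfrsf8, Tnfrsf1b, Tnfrsf1a and Relt, all of them receptors.

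A low-count filter that is passed in 1 group only favours genes that differ. Tnfrsf13c passed it only through the 3 Kdm1a-ifKO libraries, with 0 control libraries at the cutoff. Tnfrsf14, which was not called, reached the cutoff in 3 Kdm1a-ifKO and 2 control libraries. Of the 20 members that passed it in all 6 libraries, 4 were called higher, beside 5.92% of the 15603 genes that did so. Their median log2FC was 0.08, against 0.16 over the 27 tested members and 0.00 over all tested genes. Among the 22 tested receptors, which include Tnfrsf13c and Tnfrsf14, the median log2FC was 0.18, and among the 5 tested ligands it was 0.01. With only 5 ligands tested, and 6.04% of all tested genes called higher, the absence of a called ligand cannot set ligands apart from receptors.

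**Figure D2:**
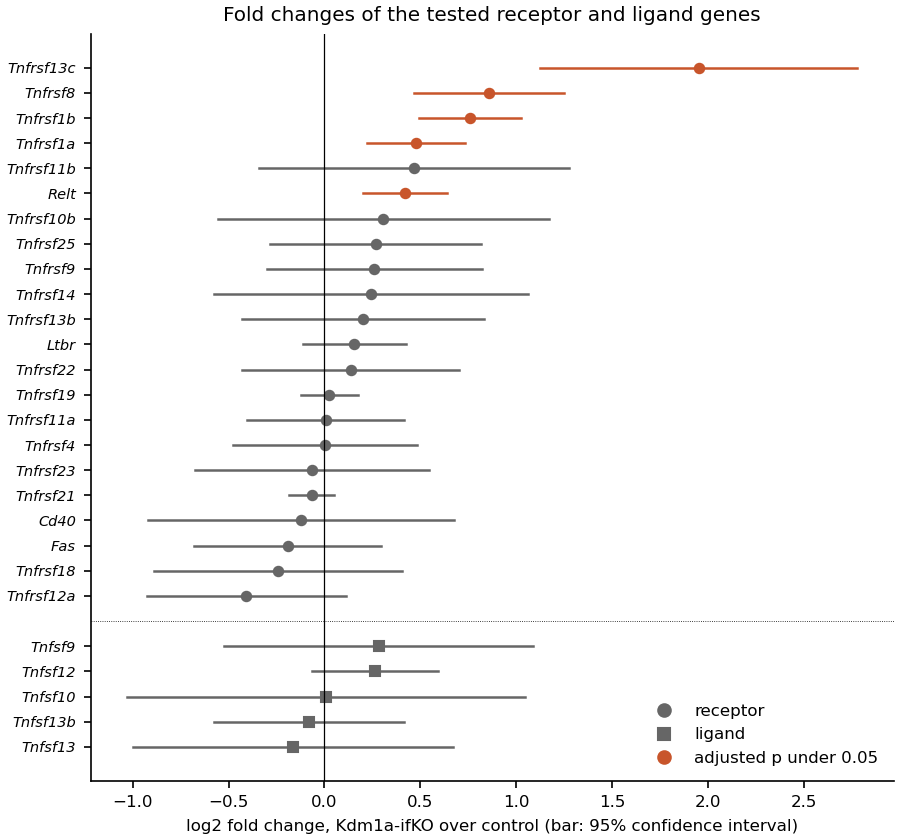
Log2 fold change of the 27 tested members, Kdm1a-ifKO over control, with 95% confidence intervals, for receptors (circles, above the dotted line) and ligands (squares, below it). The 5 coloured intervals, of Tnfrsf13c, Tnfrsf8, Tnfrsf1b, Tnfrsf1a and Relt, lie above 0, and those of the 5 ligands all include 0.

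Tnfrsf13c, the receptor for the B-cell survival factor BAFF (Tnfsf13b), showed the largest fold change of the 27 tested members and the lowest level among the called ones. It had 4, 4 and 5 counts in controls and 18, 20 and 15 in Kdm1a-ifKOs. Every Kdm1a-ifKO library was thus above every control library, at 0.229 ± 0.0341 against 0.904 ± 0.124 CPM (mean ± SD, n = 3 each). The log2FC was 1.95 (SE 0.383, edgeR adjusted p = 0.0064), and the adjusted p stayed at or under 0.0291 when any 1 library was left out. It was the only member called with a log2FC over 1, beside 1.36% of all tested genes. Tnfrsf13c lies on chr15:82221743-82224369 (minus strand, GRCm38), and no other annotated gene overlaps it.

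The promoter of Tnfrsf13c is shown because its gene changed most, and those of Tnfrsf1b and Tnfrsf8 because these neighbours were both called, a choice made after their values were seen. Each run is the 250 bases before the start site in RefSeq (GRCm38.p6, chr15:82224381-82224630, chr4:145246871-145247120 and chr4:145315165-145315414, all minus strand), 5′ to 3′, with CpG dinucleotides in capitals.
Tnfrsf13c: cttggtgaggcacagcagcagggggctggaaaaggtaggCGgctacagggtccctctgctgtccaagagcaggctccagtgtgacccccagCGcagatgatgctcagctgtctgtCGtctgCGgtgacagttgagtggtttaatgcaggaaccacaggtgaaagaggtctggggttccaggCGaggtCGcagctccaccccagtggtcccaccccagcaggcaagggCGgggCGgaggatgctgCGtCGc
Tnfrsf1b: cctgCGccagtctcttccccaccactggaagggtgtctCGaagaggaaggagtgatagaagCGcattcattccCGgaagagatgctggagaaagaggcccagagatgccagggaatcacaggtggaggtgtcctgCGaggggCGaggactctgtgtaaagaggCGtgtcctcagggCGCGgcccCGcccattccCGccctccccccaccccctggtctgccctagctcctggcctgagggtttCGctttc
Tnfrsf8: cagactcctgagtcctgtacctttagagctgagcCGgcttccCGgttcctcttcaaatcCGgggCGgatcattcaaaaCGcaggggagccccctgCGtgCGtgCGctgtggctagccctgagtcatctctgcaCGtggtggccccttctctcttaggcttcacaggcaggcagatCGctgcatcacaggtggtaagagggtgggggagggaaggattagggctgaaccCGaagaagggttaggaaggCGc

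Tnfrsf8 encodes CD30, a receptor of activated lymphocytes, and its change was the second largest among the tested members. Its counts were 49, 36 and 41 in controls and 85, 74 and 77 in Kdm1a-ifKOs. The groups did not overlap, at 2.22 ± 0.336 and 4.03 ± 0.313 CPM (log2FC 0.86, SE 0.180, edgeR adjusted p = 0.0099). Its ligand Tnfsf8 was barely detected, with 0, 0 and 1 counts in controls and 2, 3 and 2 in Kdm1a-ifKOs. The groups did not overlap, but the summed counts, 1 and 7, had a ratio of 6.87 with an exact binomial 95% interval from 0.883 to 310 for counting error alone. This ligand did not pass the filter and was not tested, and the interval includes 1.

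Tnfrsf1b, the TNF receptor without a death domain that is known from microglia and lymphocytes, had 89, 93 and 95 counts in controls and 153, 170 and 162 in Kdm1a-ifKOs. The spread within each group was small beside the gap between them, at 4.88 ± 0.226 against 8.27 ± 0.384 CPM. It had the lowest adjusted p of the tested members (log2FC 0.76, SE 0.123, edgeR adjusted p = 0.0017). Tnfrsf1a, the death domain receptor for TNF that is found on most cell types, had 154, 170 and 171 counts in controls and 204, 268 and 240 in Kdm1a-ifKOs. Its groups did not overlap either, at 8.72 ± 0.595 and 12.1 ± 1.57 CPM (log2FC 0.48, SE 0.118, edgeR adjusted p = 0.0235). The call of Tnfrsf1a was lost without control replicate 1 or 2 or Kdm1a-ifKO replicate 2 or 3 (highest adjusted p = 0.0798) and without both libraries that stood apart (0.0558).

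Relt, a receptor of lymphoid tissue that binds no known TNF-type ligand, had 208, 230 and 187 counts in controls and 278, 272 and 313 in Kdm1a-ifKOs. All 3 Kdm1a-ifKO libraries lay above all controls, at 14.7 ± 1.19 against 11.0 ± 1.02 CPM (log2FC 0.42, SE 0.103, edgeR adjusted p = 0.0223). This call was lost without control replicate 1 or 3 or Kdm1a-ifKO replicate 1 or 3 (highest adjusted p = 0.106). Tnfrsf13c, Tnfrsf8 and Tnfrsf1b were called in each of the 6 fits that left out 1 library.

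**Figure D3:**
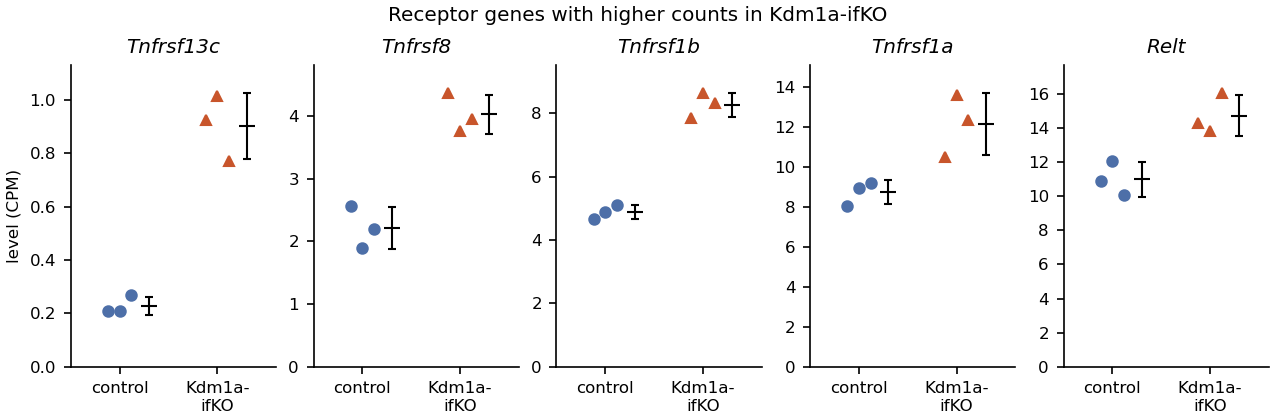
Level in CPM of the 5 called receptors in each library (circles, 3 controls; triangles, 3 Kdm1a-ifKOs), with mean and SD beside the points and axes from 0. In each panel all Kdm1a-ifKO points lie above all control points, with means of 0.904 against 0.229 CPM for Tnfrsf13c and 14.7 against 11.0 CPM for Relt.

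The transcripts of TNF and of its relatives in the major histocompatibility region were close to the limit of detection. Tnf had 2, 1 and 0 counts in controls and 1, 3 and 0 in Kdm1a-ifKOs. Lymphotoxin alpha (Lta), which binds the same receptors, had 1, 5 and 0 counts and 3, 5 and 1 counts. Both therefore overlapped between the groups while their receptors Tnfrsf1a and Tnfrsf1b were called higher. Lymphotoxin beta (Ltb) had 8, 6 and 7 counts in controls and 8, 15 and 10 in Kdm1a-ifKOs. None of these 3 ligands passed the filter on low counts, and a difference was not detectable at this depth.

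The 5 ligands that were tested had edgeR adjusted p-values between 0.313 and 0.996. Tnfsf12 (TWEAK), the most abundant ligand, had 74, 76 and 71 counts in controls and 87, 103 and 84 in Kdm1a-ifKOs. Its groups did not overlap, but the log2FC of 0.26 had a 95% interval from -0.06 to 0.59 (edgeR adjusted p = 0.313). Tnfsf12 and Tnfsf13 share sequence with the read-through gene Tnfsfm13 and lie opposite Tnfsf13os, so their counts are uncertain where reads fall in the shared parts. Its receptor Tnfrsf12a had 66, 50 and 50 counts in controls and 29, 43 and 57 in Kdm1a-ifKOs, with overlapping groups and the lowest log2FC of the tested members (-0.41, 95% interval from -0.93 to 0.11, edgeR adjusted p = 0.325).

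Tnfsf10 (TRAIL), the ligand of the death receptor Tnfrsf10b, varied more within groups than between them, with 39, 112 and 57 counts in controls and 67, 100 and 49 in Kdm1a-ifKOs. The log2FC was 0.01 with a 95% interval from -1.03 to 1.04. Tnfsf13b (BAFF), the ligand of Tnfrsf13c, had 29, 30 and 25 counts in controls and 30, 27 and 25 in Kdm1a-ifKOs (log2FC -0.08, 95% interval from -0.58 to 0.41). Its range was thus nearly the same in both groups. Tnfsf13 (APRIL) and Tnfsf9 (the ligand of 4-1BB) had between 7 and 16 counts in each library, and their groups overlapped.

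Of the remaining ligands, Fasl had 5, 4 and 5 counts in controls and 0, 2 and 4 in Kdm1a-ifKOs. Its CPM was lower in every Kdm1a-ifKO library than in any control, but the ratio of the summed counts was 0.421 with an exact binomial 95% interval from 0.133 to 1.17, and it was not tested. Tnfsf11, Tnfsf14 and Tnfsf18 had at most 5 counts over all 6 libraries. Tnfsf4, Tnfsf15 and Cd40lg had 0 counts in every library, which allows up to 0.0524 CPM over the controls and 0.0515 CPM over the Kdm1a-ifKOs (3 counts, counting error only).

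Each receptor group had between 0 and 2 members called higher among 3 to 8 tested, beside 6.04% of all tested genes. Among the 6 receptors with a death domain, 5 were tested and Tnfrsf1a was the only one called. Fas, which binds Fasl and triggers the caspase branch, had 35, 40 and 28 counts in controls and 35, 29 and 29 in Kdm1a-ifKOs (log2FC -0.19, 95% interval from -0.68 to 0.30, edgeR adjusted p = 0.655). Fas overlaps the gene Gm27818 on the same strand. Tnfrsf21 had 2566, 2575 and 2422 counts in controls and 2560, 2345 and 2549 in Kdm1a-ifKOs, and its 95% interval, from -0.18 to 0.05, was the narrowest of the tested members. Tnfrsf25 spread widely within groups, with 1058, 857 and 733 counts in controls and 1061, 864 and 1359 in Kdm1a-ifKOs (log2FC 0.27, edgeR adjusted p = 0.520). Tnfrsf10b was not called (log2FC 0.31, 95% interval from -0.56 to 1.17), and Edar, the ectodysplasin receptor, had between 2 and 7 counts in a library and was not tested.

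Of the 10 receptors known for lymphocyte costimulation or survival, 8 were tested and 2, Tnfrsf8 and Tnfrsf13c, were called. Tnfrsf9 (4-1BB) had 17, 21 and 21 counts in controls and 28, 23 and 22 in Kdm1a-ifKOs (log2FC 0.26, edgeR adjusted p = 0.588). With Tnfrsf9, Tnfsf12 and the 5 called receptors, 7 of the 27 tested members had Kdm1a-ifKO libraries that were all above the controls, and 0 were all below, beside 15.7% and 14.4% of all tested genes. Tnfrsf18 (GITR) was set by 1 library: its counts were 78, 78 and 72 in controls and 74, 91 and 34 in Kdm1a-ifKOs, where replicate 3 lay far below the others. Its neighbour Tnfrsf4 (OX40) had a log2FC of 0.00 (95% interval from -0.48 to 0.48). Tnfrsf13b (TACI), the other BAFF receptor tested, had a log2FC of 0.20 (95% interval from -0.43 to 0.83), and Tnfrsf17 (BCMA), which binds the same ligand, had between 1 and 6 counts in a library and was not tested.

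The 3 decoy or soluble receptors Tnfrsf11b (osteoprotegerin), Tnfrsf22 and Tnfrsf23 were tested and not called, with log2FC values between -0.07 and 0.47. Of the 8 other receptors without a death domain, 6 were tested and 2, Tnfrsf1b and Relt, were called. Tnfrsf19 had 1286, 1228 and 1308 counts in controls and 1351, 1462 and 1207 in Kdm1a-ifKOs (log2FC 0.03, 95% interval from -0.12 to 0.18). Ltbr was not called (log2FC 0.15, 95% interval from -0.11 to 0.42), nor were Tnfrsf11a (RANK, log2FC 0.01) or Cd40 (log2FC -0.12). Cd27, Eda2r and Tnfrsf26 had between 0 and 15 counts in a library and were not tested.

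Downstream of the receptors, 4 of 46 tested signalling genes were higher in Kdm1a-ifKOs and 0 were lower, a share of 8.70% beside 6.04% of all tested genes called higher, and their median log2FC was 0.06. Among the 24 tested adaptors and kinases these were Tradd, the adaptor of Tnfrsf1a and Tnfrsf25 (5.42 ± 0.514 against 7.64 ± 0.333 CPM, log2FC 0.50), Traf3, a brake on non-canonical NF-kB signalling (112 ± 1.35 against 127 ± 2.37 CPM, log2FC 0.18), and Traf4 (10.5 ± 0.448 against 13.6 ± 0.556 CPM, log2FC 0.37). In the caspase branch, 1 of 11 was called, Cflar, which encodes the caspase 8 inhibitor c-FLIP (22.9 ± 1.85 against 28.0 ± 1.16 CPM, log2FC 0.30). None of the 11 ubiquitin ligases and deubiquitinases was called, among them the linear ubiquitin ligase subunits Rnf31, Rbck1 and Sharpin, and 2 had an unadjusted p under 0.05. Each of the 4 calls was lost in at least 4 of the 6 fits that left out 1 library, and without control replicate 2 or Kdm1a-ifKO replicate 1 the count was 0.

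Of 23 genes known to be induced by TNF, 14 were tested, and 5 were higher and 0 lower, a share of 35.7% beside 6.04% of all tested genes called higher, with a median log2FC of 0.19. The called genes were Csf1, the growth factor of microglia (35.5 ± 1.53 against 48.0 ± 2.45 CPM, log2FC 0.44), Irf1, an interferon-related transcription factor (12.4 ± 1.06 against 17.7 ± 1.36 CPM, log2FC 0.51), and the NF-kB subunit Relb (8.51 ± 0.215 against 12.1 ± 0.986 CPM, log2FC 0.51). These 3 were called in all 6 fits without 1 library. Vcam1, a vascular adhesion molecule (30.5 ± 1.71 against 40.8 ± 5.58 CPM, log2FC 0.42), and Ier3 (3.03 ± 0.495 against 4.84 ± 1.07 CPM, log2FC 0.67) were called in 4 and 2 of them. The largest log2FC of the list, 0.87, was that of Icam1, an adhesion molecule named here after its values were seen, which had 53, 72 and 43 counts in controls and 73, 137 and 108 in Kdm1a-ifKOs and was not called (edgeR adjusted p = 0.0517, DESeq2 adjusted p = 0.0222). Sod2 and Ptgs2, also named after their values were seen, were lower in every Kdm1a-ifKO library than in any control but were not called (log2FC -0.13 and -0.17). The early target Nfkbia, which encodes an NF-kB inhibitor, had a log2FC of -0.17 (edgeR adjusted p = 0.333), and the cytokine and chemokine genes Il1b, Il6, Ccl2, Ccl5, Ccl20, Cxcl1, Cxcl2 and Cxcl10 did not pass the filter on low counts. Neither of the sheddases Adam17 and Adam10 was called, nor were Eda and Ngfr, members of the families by structure whose symbols lie outside the rule, and Cd70 had between 0 and 3 counts in a library.

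Microglial and astrocytic markers also ran higher in Kdm1a-ifKOs, with 33.3% and 50.0% called higher beside 6.04% of all tested genes. All 12 microglial markers (median log2FC 0.33) and all 8 astrocytic markers (median 0.21) had a positive log2FC, against 8251 of the 16799 tested genes. For 8 microglial and 6 astrocytic markers every Kdm1a-ifKO library lay above all controls, beside 15.7% of all tested genes. Of 12 microglial markers, 4 were called higher (Cx3cr1, Tmem119, Csf1r and C1qb) and 0 lower, and their summed level ran from 496 to 538 CPM in controls and from 565 to 736 CPM in Kdm1a-ifKOs. The count of microglial markers called was 8 with DESeq2, 1 (Cx3cr1) without both libraries that stood apart, and between 0 and 8 when 1 library was left out, being 0 without control replicate 1 or 2 or Kdm1a-ifKO replicate 3, 1 and 8 with Kdm1a-ifKO replicate 2 and replicate 1 left out, and 2 with control replicate 3 left out. Of 8 astrocytic markers, 4 were called higher (Slc1a3, S100b, Sox9 and Aldoc), 1 of which, Sox9, was called in all 6 fits without 1 library, with sums from 2576 to 2733 CPM and from 2997 to 3255 CPM. Relative to 100 CPM of the microglial markers, Tnfrsf1b stood at 0.876, 0.984 and 0.950 in controls and 1.39, 1.31 and 1.13 in Kdm1a-ifKOs. Tnfrsf8 stood at 0.482, 0.381 and 0.410 and at 0.774, 0.568 and 0.537, and Tnfrsf13c at 0.0394, 0.0423 and 0.050 and at 0.164, 0.154 and 0.105. These 3 receptors therefore still separated the groups, whereas Relt (means 2.12 and 2.27) and Tnfrsf1a (means 1.67 and 1.86) overlapped. Relative to the astrocytic markers, Relt overlapped and the other 4 did not. How far the cells of these types carry the receptor differences was not tested.

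**Figure D4:**
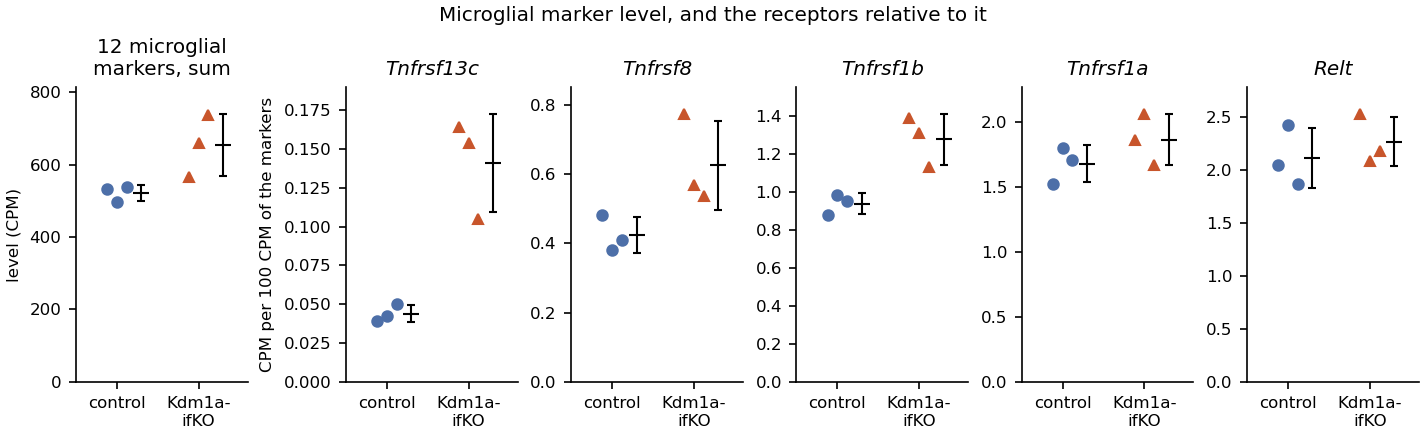
Summed CPM of 12 microglial markers (left) and, in the other panels, each called receptor in CPM per 100 CPM of these markers, per library (circles, 3 controls; triangles, 3 Kdm1a-ifKOs) with mean and SD and axes from 0. Tnfrsf13c, Tnfrsf8 and Tnfrsf1b still lie apart between the groups, at means of 1.28 against 0.936 for Tnfrsf1b, and Tnfrsf1a and Relt overlap.

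Since Tnfrsf8 and Tnfrsf13c are best known from lymphocytes, markers of these cells were read in the same libraries. Of 7 lymphocyte markers only Ptprc, which microglia also express, passed the filter on low counts, and it was not called (log2FC 0.54, edgeR adjusted p = 0.0742). The B-cell genes Ms4a1, Cd79a and Cd79b had between 0 and 13 counts in a library, and Cd79a had 8, 9 and 13 counts in controls and 3, 5 and 9 in Kdm1a-ifKOs. The T-cell genes Cd3e, Cd3g and Cd8a had at most 3 counts in a library. The sum of the 7 markers, most of it Ptprc, was 4.079 to 5.589 CPM in controls and 5.604 to 7.513 CPM in Kdm1a-ifKOs, so that it was also higher in every Kdm1a-ifKO library, by a narrow margin. Relative to 100 CPM of these markers, Tnfrsf8 stood at 62.8, 37.1 and 39.4 in controls and 78.0, 50.0 and 58.3 in Kdm1a-ifKOs and overlapped, as did Relt and Tnfrsf1a, whereas Tnfrsf13c and Tnfrsf1b did not.

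For the other cell types, 0 of 7 oligodendrocyte, 0 of 4 precursor, 0 of 7 endothelial and 0 of 4 ependymal markers were called. Called higher were 1 of 8 pericyte and fibroblast (Pdgfrb), 1 of 6 choroid plexus (Kl) and 1 of 5 thalamus markers (Prkcd), beside 6.04% of all tested genes. Of the 6 choroid plexus markers, 3 had a positive and 3 a negative log2FC, with a median of -0.21. Among neuronal markers, 1 of 6 of excitatory neurons (Neurod6) and 2 of 7 of interneurons (Vip and Npy) were called lower, beside 2.82% of all tested genes. Of the 7 interneuron markers, 6 had a negative log2FC. In every Kdm1a-ifKO library, 4 of them lay below all controls and 1 above all controls. The excitatory markers Slc17a7 and Camk2a, at 1403 and 4642 CPM in controls, were among those present in the labelled tissue.

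The members lie on 15 chromosomes, with 9 on chromosome 4 and 7 on chromosome 17. Tnfrsf1b (chr4:145213463-145246870) and Tnfrsf8 (chr4:145267137-145315164) are neighbours on the minus strand, 20.3 kb apart, and were the only adjacent members that were both called. On either side of the pair, Vps13d (log2FC -0.12, edgeR adjusted p = 0.334) and the pseudogene Smarca5-ps (log2FC -0.21, edgeR adjusted p = 0.828), the nearest tested genes, were not called. Farther out, Dhrs3, at 285 kb from Tnfrsf1b, was called higher (log2FC 0.51, edgeR adjusted p = 0.0031). In the other clusters of the family no such pair was seen: Tnfrsf4 and Tnfrsf18 are 9.6 kb apart, Ltbr and Tnfrsf1a 35.5 kb, and Tnfrsf26, Tnfrsf22 and Tnfrsf23 between 6.1 and 16.1 kb, and in these clusters only Tnfrsf1a was called.

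In the CTCF ChIA-PET library, 3 loops joined an anchor inside the body of Tnfrsf1b to an anchor inside the body of Tnfrsf8. The strongest had 21 paired-end tags (PETs), against a median of 5 among the 27786 loops of the library, and joined chr4:145214011-145217364 to chr4:145284668-145287634, spanning 70.5 kb. The others had 6 PETs each and spanned 66.5 and 81.5 kb. Loops were not limited to the called pair. The body of Tnfrsf8 was also joined to anchors inside Vps13d, which was not called, by loops of 3, 5 and 3 PETs. The start sites of Tnfrsf1b and Tnfrsf8 lay away from the anchors, the nearest being at 26.2 kb for Tnfrsf1b and 18.1 kb for Tnfrsf8. The library came from neurons labelled WT, so loops in Kdm1a-ifKOs were not measured here.

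**Figure D5:**
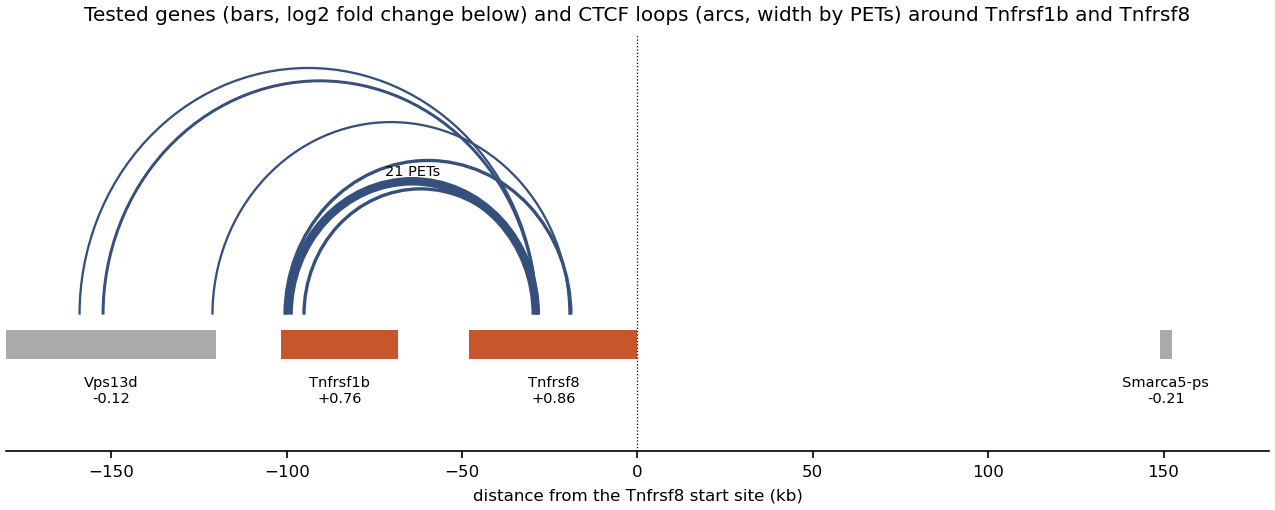
Tested genes within 180 kb of the Tnfrsf8 start site (bars; orange where called higher, with the log2 fold change below) and CTCF loops with both anchors in this window (arcs, drawn thicker with more PETs), by distance from that start site in kb. The loop of 21 PETs joins the bodies of Tnfrsf1b (+0.76) and Tnfrsf8 (+0.86), and thinner arcs join Tnfrsf8 to Vps13d. The flanking genes Vps13d and Smarca5-ps have log2 fold changes of -0.12 and -0.21.

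Anchors were also counted around the start sites of all members. One lay within 10 kb of the start site for 12 of the 44 members (27.3%), beside 23.3% of all genes and 31.4% of protein-coding genes in the count table. Relt (chr7:100845847-100863446, minus strand) had its start site in the anchors of 2 loops, with 19 and 3 PETs. Of the 6 loops with an anchor within 10 kb of it, the strongest had 27 PETs and spanned 18.9 kb. Of its neighbours, Fam168a (log2FC 0.00) and Arhgef17 (log2FC 0.18, edgeR adjusted p = 0.0589) were not called and P2ry6, a nucleotide receptor of microglia at 74.2 kb, was called higher (log2FC 0.66, edgeR adjusted p = 0.0412).

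Tnfrsf13c lay 6.9 kb from the nearest anchor, which belonged to a loop of 8 PETs. The gene lay inside 19 loops, among them this one and one of 68 PETs that spanned 170.2 kb. The far anchor of the loop of 68 PETs lay near Mei1, a meiosis gene, and 4930407I10Rik, both named here after their values were seen. Mei1 had 25, 24 and 23 counts in controls and 39, 61 and 36 in Kdm1a-ifKOs, with groups that did not overlap (log2FC 0.87, edgeR adjusted p = 0.0476), and was called in 1 of the 6 fits without 1 library. The tested neighbours of Tnfrsf13c on either side, Shisa8 and Cenpm, were not called (edgeR adjusted p = 0.562 and 0.606). Tnfrsf1a (chr6:125349362-125362484, plus strand) had its nearest anchor at 12.2 kb, and its neighbours Scnn1a, Ltbr and Cd9 were not called.

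Promoters in RefSeq (300 bases, 250 before and 50 after each start site) were matched for 34 of the 44 members, with 38 start sites in all. The 5 called receptors had between 11 and 30 CpG dinucleotides in this window (Relt 30, Tnfrsf8 15, Tnfrsf1b 13, Tnfrsf13c 12 and Tnfrsf1a 11), against a median of 8.5 over the 20 start sites of members tested but not called and of 7 over all 32841 promoters. Apart from Relt (percentile 88.3), the called receptors lay between percentiles 58.6 and 65.4 of all promoters. The 20 start sites pool receptors with ligands, which had 6 in Tnfsf10, 5 in Tnfsf13, and 6 and 6 in Tnfsf13b. Receptors tested but not called ranged widely, with 43 in Tnfrsf11a, 23 in Ltbr, 20 in Tnfrsf12a and 17 in Tnfrsf21. Next came Tnfrsf25 with 12 and 15, Fas with 14, Tnfrsf19 with 13 and 14, Tnfrsf23 with 9 and Tnfrsf13b with 8. The lowest were Tnfrsf4 with 6, Tnfrsf9 with 4 and 6, Tnfrsf18 with 4 and Tnfrsf14 with 2. The called receptors thus lay inside the range of the receptors not called. The motif GGGCGG, searched on both strands, occurred in 18 of the 38 windows (47.4%) and in 35.7% of all promoters, and among the called receptors it was found in all but Tnfrsf1a. TATAAA occurred in 7 windows (18.4%, against 13.6%), none of them of a called receptor.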

How the data were processed

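For RNA-seq, the authors trimmed single-end reads of poly-A RNA with cutadapt 1.18, aligned them to GRCm38 (mm10) with HISAT2 2.1.0 and ran HTSeq 0.11.1 to count reads per Ensembl gene. The deposited values are raw counts without normalization, and the strand setting of the counting was not given in the sources used here, which makes the counts of overlapping genes uncertain. The deposited loop file gives counts of PETs for 27786 loops with at least 3 PETs from 1 library. The labels also list ChIP-seq and 4C-seq samples, which were not used here.

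Of the 48795 gene identifiers, 48349 (99.1%) were matched to GENCODE M21. The whole count table was fitted in edgeR 4.0.16 (R 4.3.3) with filterByExpr, which asks for about 0.519 CPM in 3 libraries, TMM normalization, robust dispersions and the quasi-likelihood F test. Genotype was the sole term, and p-values of the 16799 genes tested were adjusted by Benjamini-Hochberg. CPM values use TMM-scaled library sizes, and TPM values divide counts by summed exon length. The fit was tested on simulated data with known changes. Intervals are 95% intervals, and those of count ratios cover counting error only. Replicates differed by more than counting noise. Each library is 1 mouse, so p-values rest on the spread between 3 mice a group.

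Named were all members, those called or over a log2FC of 1 and Tnf, Tnfrsf1a, Tnfrsf1b and Fas with values per library, called genes of the signalling and target lists, and Kdm1a. Flanking genes and loop partners were named after their values were seen. The members, lists and tests were chosen with earlier results of these data known, and the members of the signalling, target and marker lists from general knowledge. From the marker lists, 1 gene of excitatory neurons and 1 of lymphocytes are not reported here and were left out of the counts and sums. Alternatives were DESeq2 1.42.0, its size factors in edgeR, upper-quartile normalization, no filter, a minimum of 10 summed counts, a replicate block and leaving out libraries, and for the loops other distances and PET minimums. Promoter sequences came from RefSeq (GRCm38.p6). Python 3.11.15 with pandas 2.3.3 was used for tables.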

Additional observations from a re-analysis of the deposited data

How the results depend on the processing

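The 5 calls of members, all of receptors, stood under DESeq2, its size factors, upper-quartile normalization, no filter and a minimum of 10 summed counts, and the 5 kept their direction under every alternative run. Of the 22 tested members that were not called, 12 changed sign under at least 1 alternative, 11 of them only when libraries were left out and Tnfrsf4 also with the replicate block. Among these, Tnfsf10 (log2FC 0.01) ran from -0.40 without both libraries that stood apart to 0.53 without control replicate 2, and the largest absolute log2FC was 0.31 (Tnfrsf10b). The count of members, and of receptors, called higher was between 3 and 4 when 1 library was left out, with 3 without control replicate 1 or Kdm1a-ifKO replicate 3. The median log2FC of the members ran from 0.03 without control replicate 1 to 0.26 without control replicate 2. With the replicate number as a block, 4 members were called and Relt was not (adjusted p = 0.0524). Whether the numbers pair the mice was not given in the sources used here. The deviations of same-numbered libraries correlated at -0.05, -0.10 and -0.17, which cannot decide it, as pairing is a fact of the design. The count of signalling genes called was 4, and it was 1 with DESeq2, 7 without a filter, 1 with the replicate block and between 0 and 3 when 1 library was left out, being 0 without control replicate 2 or Kdm1a-ifKO replicate 1, 1 without Kdm1a-ifKO replicate 3, and 2 when either control replicate 3 or Kdm1a-ifKO replicate 2 was missing. The cause was not tested. Of 195 alternative values of 15 named genes, 150 kept direction and call and 45 kept direction but lost the call. Members with a loop anchor near the start site numbered 6 within 2 kb and 33 within 50 kb, beside 12 within 10 kb. Within 2 kb these were 13.6% of the members, beside 11.7% of all genes and 17.0% of protein-coding genes, and within 50 kb 75% beside 50.35% and 62.1%. Ligands with few counts limit the comparison: 8 of 16 had 10 counts or fewer over all libraries.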
